A study of Mus musculus with 20 samples.

Results

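The 42 genes described here encode the proteins that remove bulky adducts from DNA by nucleotide excision repair, fill the gap that is left, or copy past an adduct that was not removed. They were listed by their known roles, although earlier results of these data were known, and 40 of them had a probe on the array. A probe above the array's negative controls was available for 39 members, out of 12986 genes that were tested. *Ercc6* (transcription-coupled repair) and *Rfc3* (clamp loading) had no matched probe, and the 1 probe for *Rrm2b*, the p53-inducible ribonucleotide reductase subunit, was above the negative control limit on 5 of 20 arrays, well above local background on 1, and was not tested.

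Benzo(a)pyrene (BaP) is converted by cytochrome P450 enzymes to a diol epoxide that binds guanine and distorts the helix. In global genome repair, XPC with RAD23B and CETN2 finds the distortion, helped at some lesions by the DDB1 and DDB2 complex, whereas in transcription-coupled repair a stalled RNA polymerase is recognized by the products of *Ercc6* and *Ercc8*. TFIIH then opens the helix, XPA and RPA hold it, the nucleases ERCC1-ERCC4 and ERCC5 cut out the damaged strand, and polymerases loaded by PCNA and RFC refill the gap. Lesions met by a replication fork can be bypassed by translesion polymerases, of which DNA polymerase kappa (*Polk*) is known for accurate copying past the BaP adduct on guanine, and the mouse *Polk* gene is known to respond to the aryl hydrocarbon receptor, which BaP activates.

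Liver RNA came from 20 male mice of transgenic strain 40.6 (Muta™Mouse, which carries a bacterial reporter gene used to score mutations), 25 weeks of age. Groups of 5 received olive oil by gavage (0 mg/kg/day) or BaP at 25, 50 or 75 mg/kg/day for 28 days, and tissue was taken 3 days after the last dose. Each animal had 1 array, on which liver RNA (Cy5) was hybridized with a universal reference (Cy3) of RNA from 11 mouse cell lines. The dyes were never swapped, every animal carries the transgene, and no unexposed non-transgenic group was analysed here. The unit throughout is the log2 ratio of liver to reference, and a difference of 2 such ratios is a log2 fold change.

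The labels name both liver and lungs. The 4 tested hepatocyte markers of 6 listed (*Alb*, *Ttr*, *Apoa1*, *Cyp2e1*) averaged 4.20 to 5.55 per control array on the log2 ratio scale, against 0.21 to 0.68 for the 3 tested lung epithelial markers of 5, among which *Scgb1a1* passed the background test on 1 control array of 5. *Sftpd* was 1.19 higher in log2 at 75 mg/kg/day (adjusted p = 0.0688, not called), and *Sftpb* and *Sftpc* were not tested. In the liver channel 51.9 to 67.5% of spots were well above background, the highest share being on control replicate 4. The arrays lay on 6 slides, and the position on the slide followed dose almost wholly (all 25 mg/kg/day arrays in position 2, all 75 mg/kg/day arrays in position 4), so dose and position cannot be told apart. Of the 39 members, 37 were well above background on all 20 arrays, and the exceptions were *Polh* (13 arrays) and *Ercc2* (6 arrays).

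Promoter windows, 250 bases before to 50 after a RefSeq transcript start (GRCm38.p6), were found for 34 of 42 members and comprised 40 windows. The windows of the 3 members with the lowest unadjusted p for a dose trend are shown, 5′ to 3′ on the strand of the gene, with capitals marking matches to the aryl hydrocarbon receptor core TNGCGTG, to CCAAT or to the p53 consensus on either strand (the E2F motif TTTNGCGC was also searched and is in none of the 4). They are 2 starts of *Polk* (chr13:96542530-96542829 and chr13:96519138-96519437, both minus strand), *Rad23b* (chr4:55349792-55350091, plus strand) and *Ercc8* (chr13:108158488-108158787, plus strand).
Polk, upstream start: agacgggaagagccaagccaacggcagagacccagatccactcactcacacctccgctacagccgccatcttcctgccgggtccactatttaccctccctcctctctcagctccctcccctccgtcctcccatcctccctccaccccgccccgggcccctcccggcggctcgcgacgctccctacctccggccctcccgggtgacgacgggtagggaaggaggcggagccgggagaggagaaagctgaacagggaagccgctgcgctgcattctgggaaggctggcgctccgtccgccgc
Polk, downstream start: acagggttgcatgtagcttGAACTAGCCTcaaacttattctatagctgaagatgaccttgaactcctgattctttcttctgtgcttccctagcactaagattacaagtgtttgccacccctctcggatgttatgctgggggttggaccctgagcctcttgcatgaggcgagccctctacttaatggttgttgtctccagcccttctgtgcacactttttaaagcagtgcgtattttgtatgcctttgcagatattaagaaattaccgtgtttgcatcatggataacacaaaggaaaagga
Rad23b: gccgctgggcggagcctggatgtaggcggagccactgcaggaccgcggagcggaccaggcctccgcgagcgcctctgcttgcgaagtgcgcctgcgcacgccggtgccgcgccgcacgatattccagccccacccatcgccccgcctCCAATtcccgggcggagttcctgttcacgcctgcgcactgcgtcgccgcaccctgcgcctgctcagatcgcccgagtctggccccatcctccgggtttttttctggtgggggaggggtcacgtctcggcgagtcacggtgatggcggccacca
Ercc8: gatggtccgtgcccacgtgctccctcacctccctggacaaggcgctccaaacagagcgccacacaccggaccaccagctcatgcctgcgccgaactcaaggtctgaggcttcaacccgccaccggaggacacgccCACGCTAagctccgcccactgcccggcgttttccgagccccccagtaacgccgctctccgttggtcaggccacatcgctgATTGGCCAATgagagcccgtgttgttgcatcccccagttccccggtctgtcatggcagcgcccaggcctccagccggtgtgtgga
Neither *Polk* window holds the receptor core, and the downstream window has 1 p53 match, 231 bases before the start. The *Ercc8* window has 1 receptor core on the opposite strand, and 2 CCAAT matches that lie side by side. Among members the receptor core was in 4 of 40 windows (*Ercc8*, *Rfc4*, *Rpa2*, *Ube2b*), against 5.07% of all 32851 windows. The E2F motif was in 3 (*Ercc5*, *Lig1*, *Rfc3*) against 1.38%, CCAAT in 17 against 37.4%, and the p53 consensus in 3 (*Cetn2*, *Gadd45a*, *Polk*) against 8.36%. These are matches of letters only. The median share of G and C letters was 64.2% in member windows, against 52.7% over all windows. Its part in the counts was not tested. Of the members, 5 had over 1 window, so windows are not independent genes.

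In the control livers, 27 of 39 members were below the cell line reference on all 5 arrays, 5 were above it on all 5, and 7 lay on both sides. Over all genes tested the counts were 5070 below and 4749 above of 12986. The 8 repair synthesis and ligation members were all below the reference on each control array, with mean ratios from -3.14 for *Lig1*, the ligase that seals Okazaki fragments and repair patches, to -1.08 for *Rfc1*, the large subunit of the clamp loader. *Pcna*, the sliding clamp, was at -2.64 ± 0.18 (SD, n = 5). S phase and mitosis markers, of which 14 of 15 were tested, averaged -3.30 to -2.83 on the same 5 arrays, and the part of proliferation in the low ratios was not tested. In bulk tissue, fewer expressing cells and less RNA per cell cannot be told apart.

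**Figure D1:**
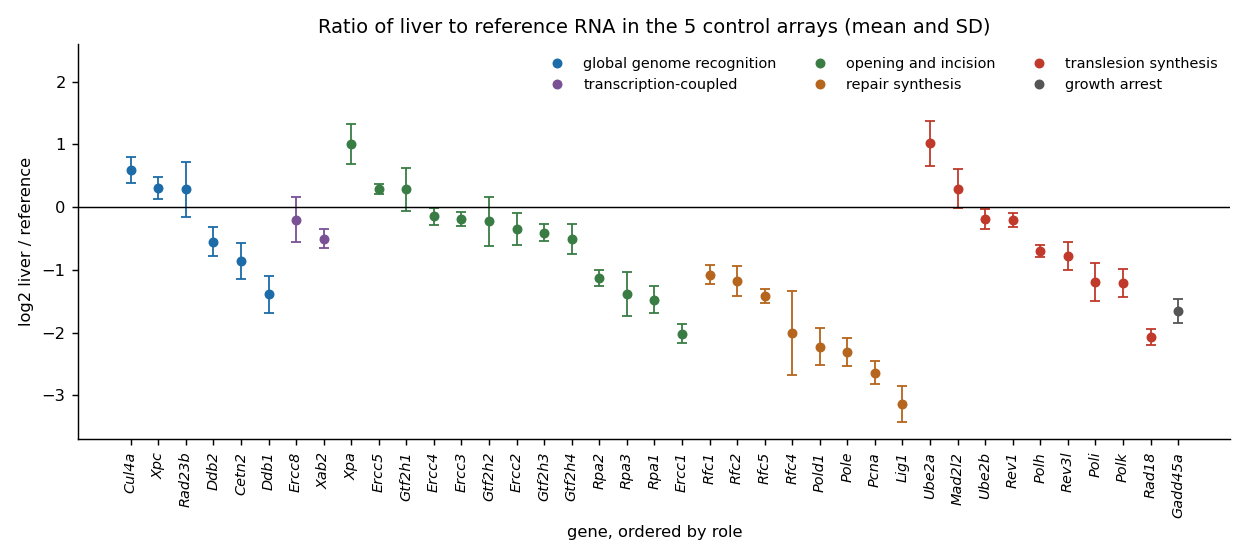
Mean log2 ratio of liver to reference RNA (y axis) of the 39 tested members (x axis, ordered and coloured by role) in the 5 control arrays, with bars of 1 SD. The 8 repair synthesis members lie between -3.14 and -1.08, and *Xpa* and *Ube2a* are highest, at 1.00 and 1.01.

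Recognition and incision members were closer to the reference. *Xpa*, the damage verification protein, had a mean control ratio of 1.00 ± 0.32, and *Ercc1*, partner of the ERCC4 nuclease, of -2.02 ± 0.15 (SD, n = 5 each). These 2 were the extremes of the 13 opening, verification and incision members. The 9 translesion members ran from -2.06 (*Rad18*, the ligase that marks PCNA) to 1.01 (*Ube2a*, its ubiquitin-conjugating partner). *Polk* was at -1.21 ± 0.23, *Polh*, the polymerase that copies past ultraviolet dimers, at -0.71 ± 0.10, and *Rev3l*, the catalytic subunit of polymerase zeta, at -0.78 ± 0.23. A ratio is relative to the reference and gives no order of transcript abundance between genes.

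The question put by the dose groups was whether repair and bypass transcripts differed from control. Genes were called where limma gave more than 1.5-fold and p under 0.05 after Benjamini-Hochberg adjustment. By this rule 0 of 39 members were called at 25 mg/kg/day (0.00% of all genes called), 0 at 50 (0.00%) and 0 at 75 (0.200%). The calls made here were fewer than the study's. With another model and the same cuts, the study reported changed transcripts at every dose. At 75 mg/kg/day they outnumbered the 26 genes called here. The lowest adjusted p among members was 0.655, 0.678 and 0.237 at the 3 doses. At an unadjusted p under 0.05 there were 0, 4 and 2 members, or 0, 10.3 and 5.13% of the 39, beside 7.91, 7.45 and 12.5% of all genes. With dose as a number, 0 members had an adjusted p under 0.05 (0.231% of all genes) and 3, or 7.69%, had an unadjusted p under it (9.88% of all genes).

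Member differences were small in both directions. The log2 fold changes ran from -0.27 to 0.29 at 25 mg/kg/day, from -0.35 to 0.52 at 50 and from -0.36 to 0.67 at 75, with medians of -0.04, -0.02 and 0.00, beside -0.01, -0.01 and 0.00 over all genes. Of 39 members, 15, 17 and 20 were above 0 (47.4, 48.7 and 49.9% of all genes). The 95% confidence interval lay within 1.5-fold either way for 34, 33 and 31 members (80.1, 80.4 and 76.9% of all genes), and it reached beyond 2-fold for 1 member, *Polk* at 75 mg/kg/day. In no member did the exposed arrays of a dose all lie on 1 side of all control arrays (1.18, 0.955 and 1.61% of all genes did so).

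**Figure D2:**
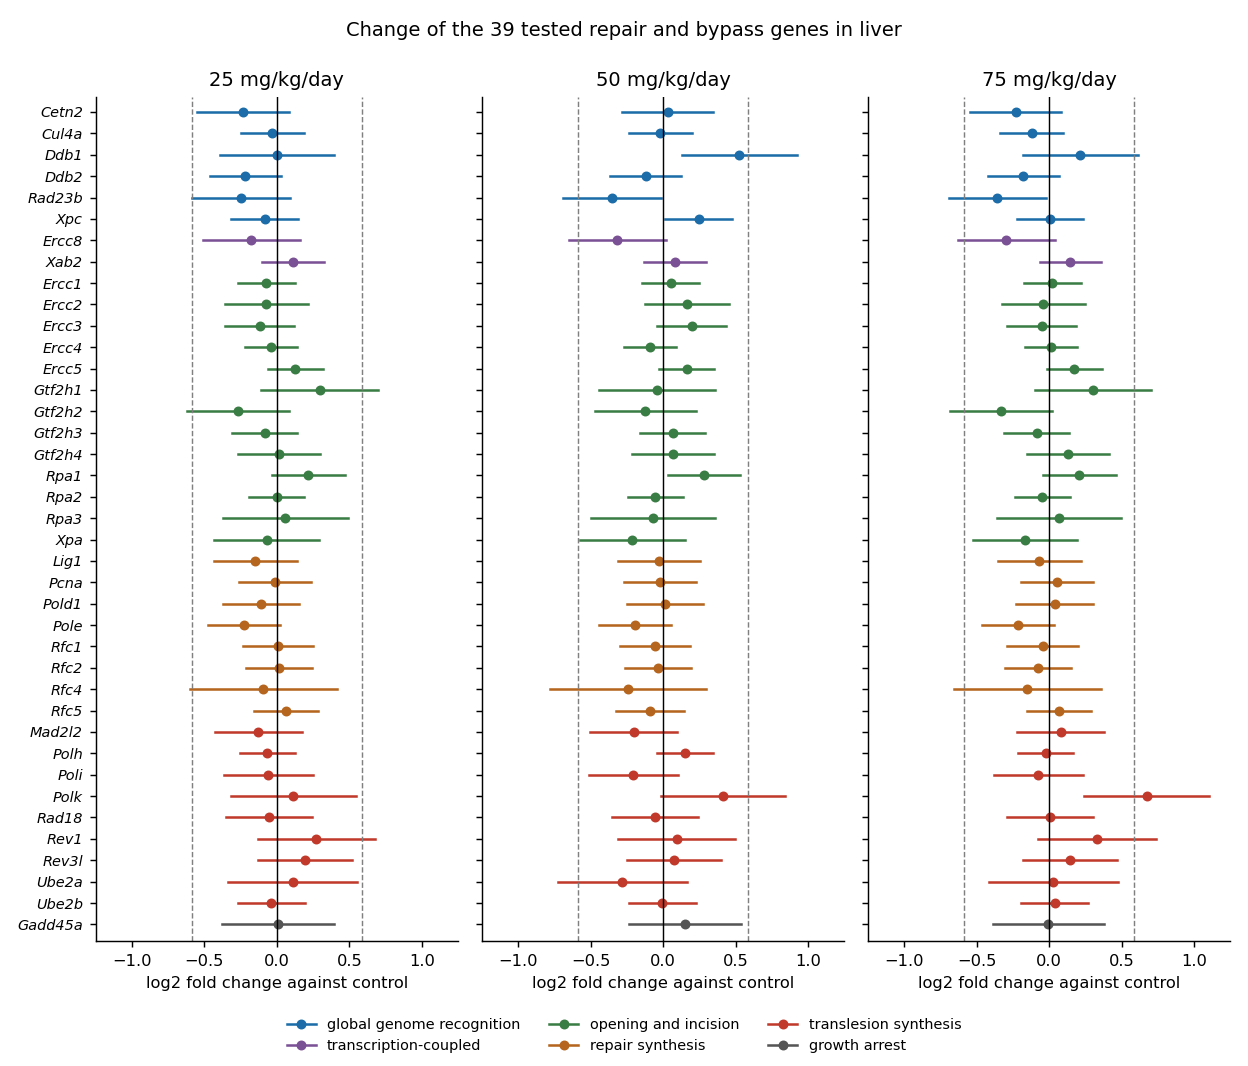
Log2 fold change against control (x axis) of the 39 members (y axis, coloured by role) at 25, 50 and 75 mg/kg/day. Points are limma estimates from 5 arrays a group, lines are 95% confidence intervals and dashed lines mark 1.5-fold; the *Polk* interval at 75 mg/kg/day, 0.24 to 1.10, lies farthest from 0.

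The p53 target *Cdkn1a*, which encodes the cell cycle inhibitor p21 and is no member, served as an anchor in the same fit. It was 3.03-fold higher at 75 mg/kg/day (log2 fold change 1.60, SE 0.22, limma adjusted p = 0.00148), with every exposed array above every control array. By RT-PCR the study reported a larger rise of *Cdkn1a* at this dose. The fold changes and intervals given here are those of array ratios. Of 9 tested p53 targets of 10 listed, 3 were called higher at this dose (*Cdkn1a*, *Zmat3* and *Phlda3*), beside 0.200% of all genes called in either direction. The study had already reported *Cdkn1a* and *Zmat3* as raised at this dose in this series, so these 2 calls were known beforehand. *Gadd45a*, the member best known as a p53 and stress target, which binds PCNA, was at -1.66 ± 0.19 in controls, -1.65 ± 0.36 at 25, -1.51 ± 0.42 at 50 and -1.66 ± 0.21 at 75 mg/kg/day (SD, n = 5 each). The difference from control at the highest dose was -0.01 in log2 (95% confidence interval -0.39 to 0.38, adjusted p = 0.996), an interval that does not reach 1.5-fold.

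*Polk* had the largest difference of the 39 members. The control arrays read -1.11, -1.47, -1.42, -0.98 and -1.05 (replicates 1 to 5), and those of the 25 mg/kg/day group -1.16, -1.45, -0.55, -1.15 and -1.16 (replicates 6 to 10). At 50 mg/kg/day they read -0.22, -1.04, -0.82, -0.90 and -0.98 (replicates 11 to 15). At 75 mg/kg/day they read -0.52, -0.34, 0.15, -0.95 and -1.01 (replicates 16 to 20). At the highest dose 4 of 5 arrays were above every control array, replicate 19 (-0.95) only just above the highest control (-0.98), whereas replicate 20 lay among the controls, so the groups overlapped. The log2 fold change was 0.11 at 25, 0.41 at 50 and 0.67 at 75 mg/kg/day (SE 0.21 each).

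At 75 mg/kg/day this was 1.59-fold (95% confidence interval 0.24 to 1.10 in log2, limma adjusted p = 0.237), which is past the fold threshold and not past the adjusted p. Over all genes tested, 135 of them had a larger log2 fold change at this dose. The slope over 0 to 75 mg/kg/day was 0.70 in log2 (adjusted p = 0.192). With slide as a fixed block in the fit the slope was 0.74 with an adjusted p of 0.0417 (0.462% of all genes called), and with the liver channel alone, quantile normalized, it was 0.75 with an adjusted p of 0.0168 (0.362% of all genes called). Without BaP75 replicate 18, the highest array, the difference at the highest dose was 0.50 in log2.

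**Figure D3:**
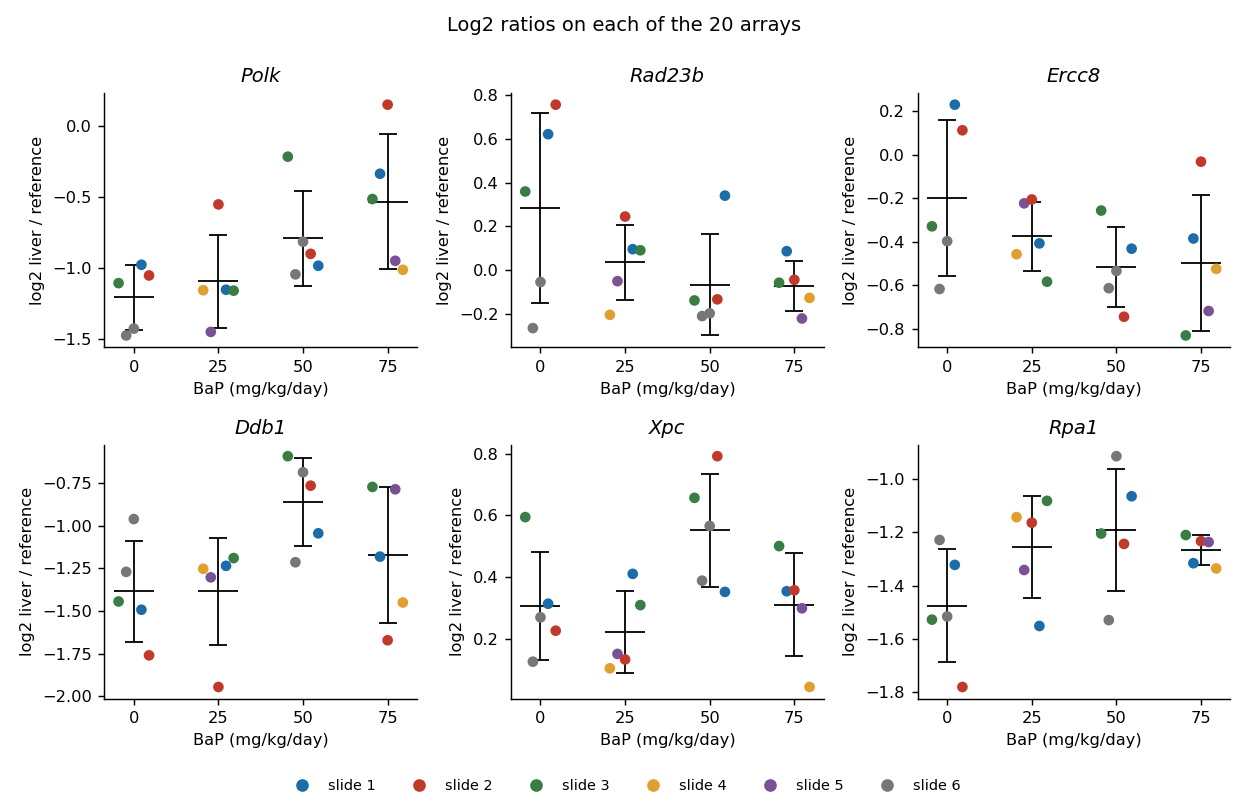
Log2 ratio of liver to reference (y axis) on each of 20 arrays against BaP dose (x axis) for the 6 members with an unadjusted p under 0.05 in a dose contrast or the trend. Points are arrays coloured by slide, and bars are the group mean and SD (n = 5); *Polk* means run from -1.21 in controls to -0.53 at 75 mg/kg/day, with overlapping groups.

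Slides 1, 2 and 3 held control and 75 mg/kg/day arrays together. Set against the control array of the same slide, *Polk* at 75 mg/kg/day was higher by 0.64, 1.20 and 0.59 in log2 on these 3 slides. Of the 39 members, 9 were higher on all 3 slides at this dose, *Polk* among them, and 8 were lower on all 3. For *Polk* at 50 mg/kg/day the within-slide differences ran from -0.01 to 0.89 over 4 slides, and at 25 from -0.18 to 0.50 over 3. The 2 lowest exposed arrays at the highest dose, replicates 19 and 20, were on slides without a control array. A second *Polk* probe was above the negative control limit on 10 of 20 arrays and was not tested, and its group means were -0.12 in controls and -0.17 at 75 mg/kg/day.

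**Figure D4:**
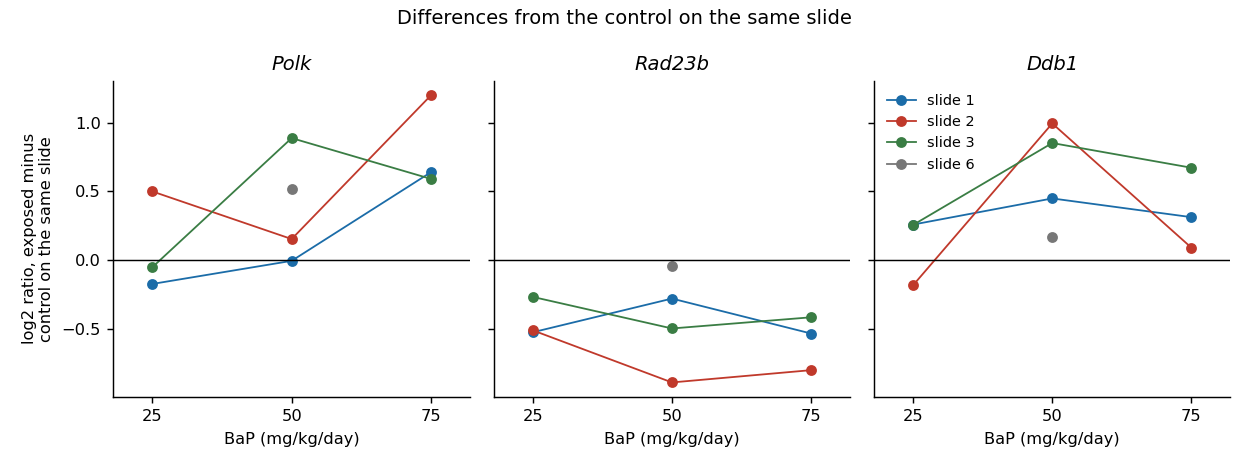
Log2 ratio of an exposed array minus that of the control on its slide (y axis) against BaP dose (x axis) for *Polk*, *Rad23b* and *Ddb1*. Each colour is a slide that held control and exposed arrays (slide 6 as means of 2 arrays each). At 75 mg/kg/day *Polk* was above 0 and *Rad23b* below 0 on 3 of 3 slides (9 of 39 members were above and 8 below on all 3).

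Markers of liver cell types were read at the highest dose as well. Of 6 Kupffer cell markers, 1 (*Marco*, log2 fold change 2.19) was called higher, and so was 1 of 6 endothelial markers (*Lyve1*, log2 fold change 2.23), beside 0.200% of all genes called. The study had already reported *Marco* and *Lyve1* (as *Xlkd1*) as raised by BaP in this series, and the marker lists were chosen with that known. The median log2 fold change was 0.10 over the Kupffer list (lowest -0.30) and 0.44 over the endothelial list (lowest 0.22). The summed liver-channel signal of the Kupffer list ran from 13.0 to 13.7 (log2) over control arrays and from 13.0 to 14.7 at 75 mg/kg/day, and that of the endothelial list from 12.8 to 13.6 and from 13.4 to 14.3. At 25 and 50 mg/kg/day the endothelial sum ran from 13.6 to 14.1 and from 13.2 to 14.4. These sums were not normalized between arrays, and that of the 39 members ran from 16.0 to 16.5 in controls and from 16.3 to 16.6 at 75 mg/kg/day. The summed hepatocyte signal ran from 18.5 to 19.2 over control arrays and from 18.9 to 19.3 at 75 mg/kg/day, with 0 of 4 tested markers called. All 4 had a log2 fold change above 0 at this dose (0.34 to 0.49), 2 of them at an unadjusted p under 0.05. Of the tested stellate (6), bile duct (5), neutrophil (3), B cell (3) and T cell (4) markers, 0 were called at this dose. The 6 Kupffer and 6 endothelial markers were well above background on every array, and their part in the *Polk* values was not tested.

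Of the other 8 translesion members, 0 had an unadjusted p under 0.05 at any dose (7.91, 7.45 and 12.5% of all genes). *Rev1*, which inserts opposite damaged guanine and holds the bypass polymerases together, had a log2 fold change of 0.27, 0.09 and 0.33 at the 3 doses (SE 0.19, adjusted p = 0.542 at 75). Its highest exposed array, 0.97, was BaP75 replicate 18, the array that was also highest for *Polk*, and without it the *Rev1* difference at this dose was 0.12. Its second probe gave 0.16. *Rev3l* was at 0.19, 0.07 and 0.14 (SE 0.16), and *Polh* at -0.06, 0.15 and -0.03 (SE 0.09). The *Polh* values depended on the processing. With the processed scanner signals they were 0.32, 0.58 and 0.58 (limma adjusted p = 0.580 at 75 mg/kg/day). A second, dimmer *Rev3l* probe gave -0.01, 0.08 and -0.07. The confidence intervals of 8 of 9 translesion members at 25, 7 at 50 and 7 at 75 mg/kg/day stayed within 1.5-fold. *Ube2a* and *Ube2b* encode near-identical enzymes, so their probes may share signal.

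Among global genome recognition members, *Rad23b*, which stabilizes XPC, was lower than control in each exposed group. Control arrays read 0.36, -0.27, -0.06, 0.62 and 0.76, and the 75 mg/kg/day arrays -0.06, 0.09, -0.05, -0.22 and -0.13. Control replicates 1, 4 and 5 were above every array of that dose, and control replicates 2 and 3, both on slide 6, were among them or lower. The log2 fold change was -0.25, -0.35 (adjusted p = 0.727) and -0.36 (adjusted p = 0.418) at the 3 doses, with an SE of 0.16. Against the control of the same slide it was below 0 on 3 of 3 slides at 25 (-0.53 to -0.27), 4 of 4 at 50 (-0.89 to -0.04) and 3 of 3 at 75 mg/kg/day (-0.80 to -0.42). Of the 39 members, 11, 5 and 8 were below 0 on every such slide at the 3 doses, and 3, 8 and 9 were above 0. At 50 mg/kg/day *Rfc4* and *Rfc5* were left out of both counts, because an array value was missing. Slides 1, 2 and 3 held control replicates 4, 5 and 1, which served for all 3 doses, so the doses are not independent here.

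*Ddb1*, the adaptor that joins DDB2 to the CUL4 ubiquitin ligase, was highest in the middle group. Its arrays at 50 mg/kg/day read -0.59, -1.21, -0.69, -0.77 and -1.04, against -1.44, -1.27, -0.96, -1.49 and -1.76 in controls. Of the 5 exposed arrays, 3 were above all controls. The log2 fold change was 0.00 at 25, 0.52 at 50 (SE 0.19, adjusted p = 0.678) and 0.21 at 75 mg/kg/day (adjusted p = 0.714). In the liver channel alone the value at 50 mg/kg/day was 0.30.

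*Xpc*, the sensor itself, was also highest at 50 mg/kg/day. Its arrays there read 0.66, 0.39, 0.57, 0.79 and 0.35, against 0.59, 0.12, 0.27, 0.31 and 0.23 in controls, so that control replicate 1 alone overlapped the exposed group. The log2 fold changes were -0.08, 0.25 (adjusted p = 0.727) and 0.01 at the 3 doses, and a second *Xpc* probe gave 0.28 at 50 and -0.20 at 75 mg/kg/day. *Ddb2*, the ultraviolet damage sensor whose human counterpart is a p53 target, was at -0.22, -0.12 and -0.18 (SE 0.12, adjusted p from 0.586 to 0.877). *Cetn2*, the centrin of the XPC complex, was at -0.23, 0.03 and -0.23 (SE 0.15).

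In transcription-coupled recognition, *Ercc8* (Cockayne syndrome A) read -0.33, -0.62, -0.40, 0.23 and 0.11 in controls and -0.83, -0.38, -0.03, -0.72 and -0.52 at 75 mg/kg/day. The ranges overlapped widely. The dose slope was -0.31 in log2 over 0 to 75 mg/kg/day (adjusted p = 0.580), whereas a second, dimmer probe gave log2 fold changes of 0.09, 0.17 and 0.02 at the 3 doses against -0.17, -0.32 and -0.30 for the first. *Xab2*, which binds XPA, was at 0.11, 0.08 and 0.15.

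Of the 13 opening, verification and incision members, *Rpa1*, the large subunit of the single-strand binding protein, had the lowest p. Its controls read -1.53, -1.23, -1.52, -1.32 and -1.78 and its arrays at 50 mg/kg/day -1.21, -1.53, -0.92, -1.24 and -1.07, which was 0.28 higher in log2 (SE 0.12, adjusted p = 0.722). At 75 mg/kg/day it was 0.21 with all 5 arrays between -1.34 and -1.21, overlapping the controls. In the liver channel alone the difference at 50 mg/kg/day was 0.05. *Rpa2* and *Rpa3*, which share its complex, were at -0.05 and -0.07 at 50 mg/kg/day.

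Subunits of TFIIH went both ways. *Gtf2h1* was at 0.29, -0.04 and 0.30 (SE 0.19) and *Gtf2h2* at -0.27, -0.12 and -0.33 (SE 0.17), with adjusted p of 0.577 and 0.470 at 75 mg/kg/day. *Xpa* was at -0.07, -0.21 and -0.17 (SE 0.17), and *Ercc1* at -0.07, 0.05 and 0.02 (SE 0.10). The *Ercc1* interval at 75 mg/kg/day was -0.18 to 0.22. In the liver channel alone *Ercc1* was at -0.24 at 25, -0.21 at 50 and -0.24 at 75 mg/kg/day, the last outside that interval.

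Repair synthesis and ligation members had small differences from control. Their log2 fold changes ran from -0.22 to 0.07 at 25, from -0.24 to 0.02 at 50 and from -0.21 to 0.07 at 75 mg/kg/day. An unadjusted p under 0.05 was reached by 0 of 8 at any dose (7.91, 7.45 and 12.5% of all genes). *Pcna*, also a p53 target, had group means of -2.64, -2.65, -2.67 and -2.59 from control to the highest dose, and its difference from control at the highest dose was 0.06 in log2 (95% confidence interval -0.19 to 0.30). Of the 14 tested S phase and mitosis markers, 0 were called at any dose (0.00, 0.00 and 0.200% of all genes called). Their log2 fold changes at 75 mg/kg/day lay between -0.22 and 0.33. For *Ccnb2*, which is on the list of these markers, the study reported a rise at this dose by RT-PCR.

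Of 37 other genes of these pathways, 32 were tested. Of these, 0 were called at 25, 50 or 75 mg/kg/day or in the trend (0.00, 0.00, 0.200 and 0.231% of all genes). *Gadd45g*, a paralog of *Gadd45a*, was at -0.54, 0.41 and -0.60 with an SE of 0.53, the largest absolute difference of this list at each dose. At an unadjusted p under 0.05 there were 2 at 25 (*Hmgn1*, -0.26, and *Pold2*, -0.27), 0 at 50 and 1 at 75 mg/kg/day, the last of them higher than control (7.91, 7.45 and 12.5% of all genes). In the trend there was 1, also higher (9.88% of all genes).

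The pooled within-group SD of members ran from 0.11 to 0.42 (median 0.22, as over all genes). A median of 46.4% of a member's variance lay between slides and 16.6% between dose groups, beside 41.2 and 15.4% over all genes. There were 13 further present probes for 11 members, of which 0 had an unadjusted p under 0.05 at any dose (7.91, 7.45 and 12.5% of all genes). Their log2 fold changes differed from those of the probe used by a median of 0.10, 0.07 and 0.06 at the 3 doses, and by up to 0.26, 0.49 and 0.32. The sign was the same for 8, 9 and 7 of the 13. The median absolute log2 fold change of the 39 members was itself 0.08, 0.09 and 0.08.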

How the data were processed

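Members and gene lists were chosen with earlier results of these data known. The authors deposited median spot and background intensities from Feature Extraction (10.1.1.1 in the file headers), processed intensities, and log2 ratios that they had normalized by LOWESS. These deposited log2 ratios correlated with the ratios made here at r between 0.994 and 0.996. Median intensities were corrected by normexp (offset 50) and loess within array, giving log2 Cy5/Cy3, with outlier spots left out. Of 41174 probes, 27345 were present, that is, above the trimmed mean (5%) plus 3 trimmed SDs of 153 negative control spots in 4 or more of the 5 arrays of any group. Symbols came from RefSeq accessions (23374 probes), and a gene is represented by its present probe of highest mean intensity. R 4.3.3, limma 3.58.1, statmod 1.5.0, Python 3.11.15 and matplotlib 3.10.9 were used.

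Each dose was contrasted with control in 1 limma model of 20 arrays, and a second model took dose as a number. The study's methods used MAANOVA, which was not used here. Of the members, 17 were followed in full and are the named members below. They are those with an unadjusted p under 0.05, the 5 largest changes at each dose and fixed representatives of each role. Other members are mentioned with fewer values. With 5 arrays per group, precision is limited by their number. The design text gives 24 where the sample labels give 25 mg/kg. The sample that the study left out is unnamed, so all 20 arrays stayed in. The fits were tested on simulated data. The values of 1 gene of the other pathway list are not reported here.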

Additional observations from a re-analysis of the deposited data

Results flagged for a closer look

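In 68 groups of 5 arrays (17 named members in 4 dose groups), the highest or lowest array was compared with the range of its group by Dixon's ratio, and 6 groups had such an array. Chance alone gives about 1 in 20 groups. *Polk* on BaP50 replicate 11 read -0.22, where the other arrays of that dose read -1.04 to -0.82, and without it the difference from control at that dose was 0.27 in place of 0.41 in log2. *Rad23b* on BaP50 replicate 15 read 0.34, where the others read -0.21 to -0.14. *Ddb1* on BaP25 replicate 8 read -1.95 (others -1.30 to -1.19). *Ddb2* on BaP25 replicate 9 read -0.55 (others -0.88 to -0.79). *Gtf2h2* on BaP75 replicate 18 read -0.25 (others -0.70 to -0.57). *Gadd45a* on BaP75 replicate 20 read -1.29 (others -1.81 to -1.73). The 6 values came from 6 different arrays.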

How the results depend on the processing

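Besides leaving out each of 20 arrays, 14 alternatives were tried. The count of members called was 0 to 0 at 25, 50 and 75 mg/kg/day under 34 alternatives each, and the lowest adjusted p was 0.0793, for *Polk* at 75 mg/kg/day in the liver channel alone. The count of members with a linear trend became 1 (*Polk*) with the liver channel alone, quantile normalized, and 1 (*Polk*) with slide as a fixed block, and stayed 0 to 0 with each array left out. *Polk* at 75 mg/kg/day ran from 0.50 (without BaP75 replicate 18) to 1.07 in log2 (processed scanner signals), with an unadjusted p under 0.05 in 33 of 33 alternatives and an adjusted p from 0.0793 to 0.420. *Polk* at 25 mg/kg/day was -0.02 without BaP25 replicate 8. *Rad23b* at 75 mg/kg/day ran from -0.49 to -0.23, with an unadjusted p under 0.05 in 23 of 33. *Polh* at 75 mg/kg/day ran from -0.10 (without BaP75 replicate 16) to 0.58 (processed scanner signals). The cause of these shifts was not tested. Over 2210 alternative values of the named members the sign changed in 76. The members' median stayed between -0.06 and 0.04 at all doses and changed sign in 1, 4 and 14 alternatives. Replicate numbers are not shared between groups, so arrays were matched across doses by slide only.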
